A study of Homo sapiens with 6 samples.

Results

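Long noncoding RNAs that carry snoRNAs in their introns, together with a set of well-known long noncoding RNAs, were followed in 143B cells after deletion of CNTNAP4. 143B is a human osteosarcoma cell line, and CNTNAP4 encodes a cell surface receptor of the neurexin family. The transcripts were chosen by name: every row of the expression table whose symbol is SNHG followed by a number (28 rows), and GAS5, ZFAS1, EPB41L4A-AS1, MALAT1, NEAT1, H19, MEG3, DANCR, CYTOR, LINC-PINT, NORAD, TUG1 and MIR22HG. This gave 41 of the 54308 genes in the table. The 2 groups were 143B cells with the vector control plasmid (VC, n = 3 libraries) and 143B cells with CRISPR/Cas9 deletion of CNTNAP4 (KO, n = 3 libraries), and the labels give 48 h of transfection for both, whereas the study's methods give a longer time before single cells were sorted and grown, so the time at which RNA was taken is unclear. Per the study's methods the cells were clonal and 2 KO clones had been expanded, but the labels do not tie a library to a clone, so a difference between clones and an effect of the deletion cannot be told apart. The p-values therefore measure only the spread between these libraries.

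Small nucleolar RNAs (snoRNAs) guide the chemical modification of ribosomal RNA. Box C/D snoRNAs guide methylation of the ribose and box H/ACA snoRNAs guide pseudouridylation, while small Cajal body RNAs (scaRNAs) do the same for spliceosomal RNAs. In human cells most snoRNAs are cut out of introns. The spliced exons of noncoding host genes, the SNHG transcripts, GAS5 and ZFAS1 among them, often have no known protein product, and many are degraded during translation by nonsense-mediated decay. Several hosts begin with a C followed by a run of pyrimidines, a start shared with ribosomal protein mRNAs (the 5′ TOP motif). The remaining transcripts have other roles. NEAT1 is the scaffold of paraspeckles, MALAT1 lies in nuclear speckles, NORAD is a cytoplasmic RNA linked to genome stability, and LINC-PINT and MIR22HG have been described as tumour suppressors or microRNA hosts.

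The start sequences are shown first. Several snoRNA hosts have the TOP type of start, both among the transcripts that changed and among those not called. RefSeq start windows (build GRCh38.p14) were found for 36 of the 41 transcripts, 42 windows in all. Each sequence below runs 5′ to 3′ on the strand of the transcript, with 20 bases before the annotated start and 30 from the start on. In the first group, capitals mark the unbroken run of C or T that opens with a C at the annotated start. SNHG18, SNHG32 and SNHG5 were higher in KO in the comparison below, and the other 4 were not called.
SNHG18, chr5:9546180-9546229, plus strand: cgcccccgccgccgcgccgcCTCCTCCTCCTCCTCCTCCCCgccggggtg
SNHG32, chr6:31834896-31834945, plus strand: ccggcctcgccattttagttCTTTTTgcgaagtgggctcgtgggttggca
SNHG5, chr6:85678704-85678753, minus strand: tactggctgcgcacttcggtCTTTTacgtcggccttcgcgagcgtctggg
ZFAS1, chr20:49278622-49278671, plus strand: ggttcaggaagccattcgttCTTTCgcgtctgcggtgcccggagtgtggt
SNHG19, chr16:2155329-2155378, minus strand: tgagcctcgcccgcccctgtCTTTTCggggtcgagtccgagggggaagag
SNHG12, chr1:28581844-28581893, minus strand: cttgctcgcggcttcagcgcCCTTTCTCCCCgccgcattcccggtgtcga
SNHG4, chr5:139274081-139274130, plus strand: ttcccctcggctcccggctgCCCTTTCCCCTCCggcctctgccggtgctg

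A run of at least 5 was present in 7 of 42 windows of these transcripts (16.7%), in 1429 of 35116 windows of all genes (4.07%) and in 44 of 81 windows of RPL and RPS ribosomal protein genes (54.3%). The run was read on the transcript strand only. By the later comparison, 3 of 10 transcripts higher in KO with a window had the run, 0 of 8 that were lower and 4 of 15 that were not called. Hosts with the run were therefore found both among those that rose and among those not called.

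Another pair shared a different letter string. GAS5 and EPB41L4A-AS1, which were both higher in KO by nearly the same amount, have GAATTC (capitals) directly before the annotated start. GAATTC reads the same on both strands and does not overlap the run above. The string was noticed after the windows had been read, so the shares that follow cannot test whether it is commoner here. It lies directly before the start in 2 of these 42 windows (4.76%) and in 19 of the 35116 windows of all genes (0.0541%).
GAS5, chr1:173869016-173869065, minus strand: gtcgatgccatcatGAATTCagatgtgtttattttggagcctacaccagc
EPB41L4A-AS1, chr5:112160506-112160555, plus strand: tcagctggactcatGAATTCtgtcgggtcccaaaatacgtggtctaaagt

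For contrast, SNHG1 and SNHG8, both higher in KO, open with a run shorter than 5 (capitals), and NORAD and SNHG10, both lower in KO, do not open with C. A match or its lack describes only these letters at the annotated start.
SNHG1, chr11:62855856-62855905, minus strand: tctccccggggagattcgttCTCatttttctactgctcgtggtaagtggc
SNHG8, chr4:118278742-118278791, plus strand: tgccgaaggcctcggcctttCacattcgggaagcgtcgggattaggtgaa
NORAD, chr20:36050931-36050980, minus strand: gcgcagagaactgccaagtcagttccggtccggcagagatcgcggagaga
SNHG10, chr14:95534843-95534892, minus strand: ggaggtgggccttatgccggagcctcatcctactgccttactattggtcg

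The deposited values were log2 signals that had been quantile-normalized between the 6 libraries, with 20333 to 21041 genes given a value per library and a median of 0.62 in each. The read depth is unknown. CNTNAP4 itself had a value only in VC replicate 3 (-7.18), near the bottom of the scale, so the table does not check the deletion. Of the mesenchymal and osteoblast markers 4 of 7 tested were higher and 1 was lower in KO, with log2 fold changes of 1.55 for SPP1, 0.58 for ALPL and -0.81 for COL1A2, and their summed linear signal was 1390 to 1567 in VC and 1685 to 2103 in KO. Of epithelial markers 2 of 2 tested were lower (CLDN4 at -1.89 and EPCAM at -0.67), and of haematopoietic and endothelial markers 0 of 2 and 0 of 5 were called by limma (0 and 1 at an unadjusted p under 0.05). The summed signal was 3.28 to 3.62 in VC and 1.82 to 2.30 in KO for epithelial markers, 0.199 to 0.229 and 0.0540 to 0.0710 for haematopoietic markers, and 0.0672 to 0.117 and 0.0894 to 0.163 for endothelial markers. IBSP and KRT14 had no value in any library. Over all genes tested, 13.1% were called higher and 19.8% lower. At an unadjusted p under 0.05 these counts were 3445 and 5796 of 19306 genes. The part of these shifts in the results was not tested.

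Levels were first compared among the transcripts. The signals could be read per length, since among 1261 genes with a value in 1 library only the value fell with log2 exon length (r = -0.786 across genes, slope -0.845). The snoRNA hosts held the highest levels. On the log2 scale the VC mean was 8.39 ± 0.03 (SD, n = 3) for SNHG29, 7.49 ± 0.03 for ZFAS1, 7.23 ± 0.04 for SNHG32, 6.71 ± 0.07 for SNHG6 and 6.58 ± 0.08 for GAS5. Of the 38 transcripts tested, 30 lay in the upper 50% of all tested genes by mean signal and 13 in the top 10%. MALAT1 and NEAT1 did not match the description abundant in this table. MALAT1 stood at the 53.5th percentile of mean signal (VC mean 1.84 ± 0.15) and NEAT1 at the 39.9th (-0.66 ± 0.18). H19 stood at the 9.18th percentile and MEG3 had no value in any library.

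Next, KO was compared with VC to ask which of these transcripts changed when CNTNAP4 was deleted. Of the 41 transcripts, 38 had at least 2 values in each group and were tested. A transcript was called a DEG at an adjusted p under 0.05 (limma's moderated test, Benjamini-Hochberg adjustment over 19306 genes), and fold changes are KO against VC. There were 19 DEGs (50%), 11 higher and 8 lower in KO. Of all genes tested 32.9% were called, 13.1% higher and 19.8% lower. The share of these transcripts called higher was 28.9% and the share called lower was 21.1%. Within the upper 50% of signals, 8 of the 30 transcripts were higher and 7 lower, against 16.7% and 22.5% of genes there (39.2% in either direction). Among other long noncoding RNA rows 21.1% of 2623 were called, 8.46% higher and 12.6% lower. With single libraries left out the number of DEGs among these transcripts ran from 7 (without VC replicate 3) to 23 (without KO replicate 1), and that over all genes from 1223 to 8669 for the same libraries.

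The transcripts did not move as 1 block. Their median log2 fold change was 0.0056, against -0.125 for all genes, and the interquartile range was 0.994 against 0.741. At least a 2-fold change was seen in 7 DEGs (6 higher, 1 lower), while 9.53% of all genes passed both limits, 4.1% higher and 5.43% lower. For the 37 transcripts with 6 values, all KO libraries lay above all VC libraries in 13 and below in 14. That is 27 of 37, beside 59.3% of all such genes (22.6% above and 36.7% below).

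**Figure D1:**
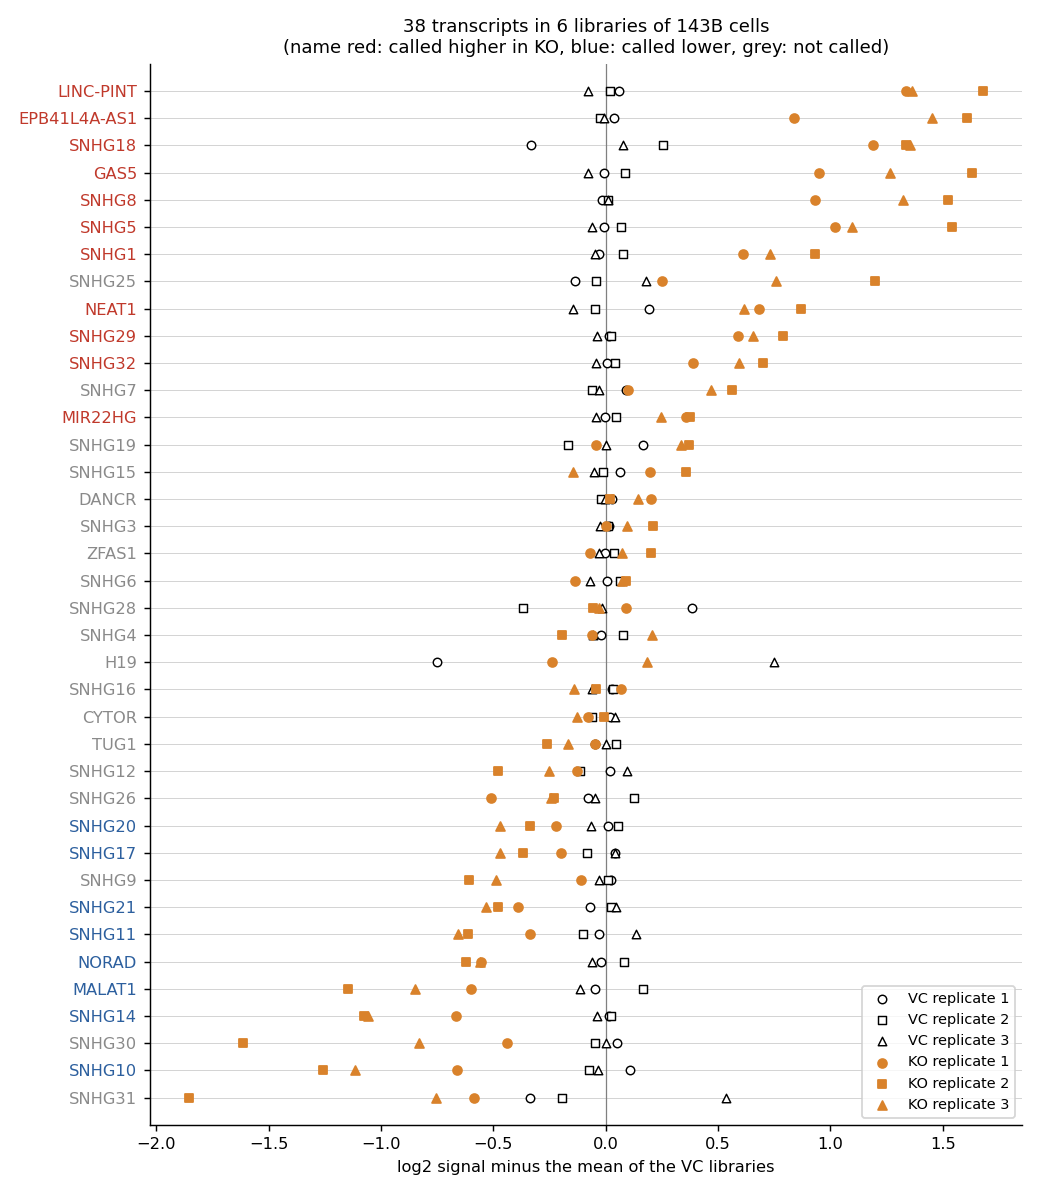
Each row is 1 of the 38 transcripts tested and each point is 1 library, plotted as its log2 signal minus the mean of the VC libraries; open symbols are VC, filled symbols are KO and the shape gives the replicate. LINC-PINT at the top and SNHG31 at the bottom span log2 fold changes of 1.46 to -1.07, and KO replicate 1 lies closest to VC in most called rows.

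Among the snoRNA hosts, 5 rose by more than 2-fold. GAS5, the host of SNORD44, SNORD47 and other box C/D snoRNAs and itself named for its rise in growth-arrested cells, had log2 signals of 6.57, 6.66 and 6.50 in VC and 7.53, 8.21 and 7.84 in KO. The groups did not overlap, and KO replicate 2 was the highest. The log2 fold change was 1.28 (SE 0.18, 2.43-fold, adjusted p = 0.012). The adjusted p was 0.051 without VC replicate 3.

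EPB41L4A-AS1, the host of SNORA13, had log2 signals of 4.09, 4.03 and 4.05 in VC and 4.90, 5.66 and 5.51 in KO. All KO libraries were above VC, with KO replicate 1 well below the other two. The log2 fold change was 1.30 (SE 0.21, adjusted p = 0.015). The call was lost without KO replicate 3 (adjusted p = 0.051), VC replicate 1 (0.054) or VC replicate 3 (0.057).

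SNHG8, the host of SNORA24, had log2 signals of 5.46, 5.49 and 5.49 in VC and 6.41, 7.0 and 6.80 in KO (log2 fold change 1.26, SE 0.16, adjusted p = 0.010). SNHG5, the host of SNORD50A and SNORD50B, had 4.91, 4.98 and 4.85 in VC and 5.93, 6.45 and 6.01 in KO (1.22, SE 0.16, adjusted p = 0.010). The VC libraries lay close together in both genes, and the KO libraries were more spread. SNHG18, the host of SNORD123, was a low transcript with -1.95, -1.36 and -1.54 in VC and -0.42, -0.28 and -0.26 in KO (1.29, SE 0.17, adjusted p = 0.010). In SNHG18 the wider spread was in VC, and the groups did not overlap. All 3 genes stayed DEGs with any single library left out.

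A further 3 highly expressed hosts rose by less than 2-fold. SNHG29, the host of SNORD49A, SNORD49B and SNORD65, had log2 signals of 8.41, 8.42 and 8.35 in VC and 8.98, 9.18 and 9.05 in KO (log2 fold change 0.68, SE 0.08, adjusted p = 0.0096). SNHG1, the host of SNORD22 and SNORD25 to SNORD31, had 5.62, 5.73 and 5.61 in VC and 6.26, 6.58 and 6.38 in KO (0.76, SE 0.11, adjusted p = 0.011). The order of the KO libraries was the same in both genes, with replicate 2 highest and replicate 1 lowest. SNHG32, the host of SNORD48 and SNORD52, had 7.23, 7.26 and 7.18 in VC and 7.61, 7.92 and 7.82 in KO (0.56, SE 0.10, adjusted p = 0.018). SNHG29 kept its call with any library left out. SNHG1 lost it without VC replicate 3 (adjusted p = 0.051), and SNHG32 without KO replicate 3 (0.061) or VC replicate 1, 2 or 3 (0.064, 0.052 and 0.068).

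The other 3 transcripts that rose carry no snoRNA. LINC-PINT, a p53-induced transcript that starts beside MKLN1, had the largest log2 fold change of the 38. Its log2 signals were -1.66, -1.71 and -1.80 in VC and -0.39, -0.05 and -0.36 in KO (1.46, SE 0.12, 2.75-fold, adjusted p = 0.0060), and the call held with any library left out. NEAT1 had -0.46, -0.70 and -0.81 in VC and 0.02, 0.21 and -0.04 in KO (0.72, SE 0.12, adjusted p = 0.016), with no overlap. MIR22HG, the host of the microRNA miR-22, had 2.06, 2.11 and 2.02 in VC and 2.43, 2.44 and 2.32 in KO (0.33, SE 0.07, adjusted p = 0.027). NEAT1 lost the call without VC replicate 2 (adjusted p = 0.053) or VC replicate 3 (0.059). MIR22HG lost it without any library but KO replicate 1, with adjusted p from 0.053 (KO replicate 2) over 0.059 (KO replicate 3), 0.062 (VC replicate 2) and 0.091 (VC replicate 1) to 0.097 (VC replicate 3).

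Among the 8 transcripts that fell, NORAD and MALAT1 are the long noncoding RNAs without a snoRNA. NORAD had log2 signals of 6.30, 6.40 and 6.26 in VC and 5.77, 5.70 and 5.76 in KO. The KO libraries lay closer together than the VC libraries and well below them. The log2 fold change was -0.58 (SE 0.07, adjusted p = 0.0098), and the call held with any library left out.

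MALAT1 had log2 signals of 1.79, 2.0 and 1.72 in VC and 1.23, 0.69 and 0.99 in KO (log2 fold change -0.87, SE 0.17, 1.82-fold lower, adjusted p = 0.020). NEAT1 and MALAT1, neighbours on chromosome 11, thus moved in opposite directions. MALAT1 lost the call without KO replicate 3 (adjusted p = 0.062) or VC replicate 1, 2 or 3 (0.063, 0.061 and 0.059). The mature 3′ end of MALAT1 is not a poly(A) tail, and the labels name a stranded mRNA kit whereas the study's methods name total RNA, so the capture of transcripts without a tail was looked at beside it. Of 7 tested RNAs without a poly(A) tail, 6 had a negative log2 fold change, the median was -0.61 and 0 were called by limma. Over all genes tested the median was -0.125, and 13.1% were called higher and 19.8% lower. Of the 7 RNAs, the 1 with an unadjusted p under 0.05 was RMRP, which was higher in KO (0.59, SE 0.19, adjusted p = 0.059). The summed linear signal of the list was 293.9 to 561 in VC and 126.1 to 586.8 in KO. RN7SL1, the RNA of the signal recognition particle, had 7.21, 7.92 and 6.78 in VC and 7.87, 5.72 and 5.64 in KO, so KO replicates 2 and 3 stood below the rest. The part of this in the MALAT1 value was not tested.

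The 3 tested hosts of a single scaRNA all fell, while 19.8% of all genes tested were called lower. A further one, SNHG22 with SCARNA17, could not be tested. SNHG10, the host of SCARNA13, had log2 signals of 3.35, 3.16 and 3.20 in VC and 2.57, 1.98 and 2.12 in KO (log2 fold change -1.01, SE 0.17, 2.02-fold lower, adjusted p = 0.016). SNHG21, the host of SCARNA15, had 1.57, 1.66 and 1.68 in VC and 1.25, 1.16 and 1.11 in KO (-0.47, SE 0.08, adjusted p = 0.015). SNHG20, the host of SCARNA16, had 1.78, 1.82 and 1.71 in VC and 1.55, 1.43 and 1.30 in KO (-0.34, SE 0.09, adjusted p = 0.041). No KO library reached the VC range in these genes. The call was lost without KO replicate 3, VC replicate 1 or VC replicate 3 for SNHG10 (adjusted p = 0.056, 0.059 and 0.058) and SNHG21 (0.053, 0.051 and 0.062). SNHG20 lost it without any library but KO replicate 1 (0.082 to 0.116), and also with median-centred libraries, after a further quantile normalization and without variance moderation. It overlaps SEC14L1 on the same strand, which had a higher signal (VC mean 4.85 against 1.77). SEC14L1 fell (-0.68, SE 0.06, adjusted p = 0.0079), and its reads could be counted to SNHG20. The part of this in the SNHG20 value was not tested.

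SNHG14, the long transcript of the imprinted Prader-Willi region that holds the SNORD115 and SNORD116 clusters, had log2 signals of 1.0, 1.01 and 0.95 in VC and 0.32, -0.09 and -0.08 in KO (log2 fold change -0.93, SE 0.13, 1.91-fold lower, adjusted p = 0.012). The call held with any library left out. Transcripts of the same locus did not move alike. IPW (-0.98, adjusted p = 0.013) and PWAR6 (-1.30, adjusted p = 0.019), which lie within SNHG14, fell, whereas SNRPN (0.08, adjusted p = 0.56), SNURF (0.06, 0.72) and UBE3A (-0.12, 0.31) were not called. Reads in these overlapping genes could be counted to either, and whether the counting used strand is not given in the sources used here.

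SNHG11, the host of SNORA60 and SNORA71E, had log2 signals of 2.96, 2.89 and 3.12 in VC and 2.65, 2.38 and 2.34 in KO (log2 fold change -0.54, SE 0.12, adjusted p = 0.028). SNHG17, the host of SNORA71A to SNORA71D, had 5.51, 5.39 and 5.51 in VC and 5.27, 5.10 and 5.00 in KO (-0.35, SE 0.10, adjusted p = 0.046). The groups did not overlap in either gene, but both calls were lost without any library other than KO replicate 1 (adjusted p 0.061 to 0.088 for SNHG11 and 0.079 to 0.134 for SNHG17). Both also lost their call without variance moderation, and SNHG17 with median-centred libraries.

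**Figure D2:**
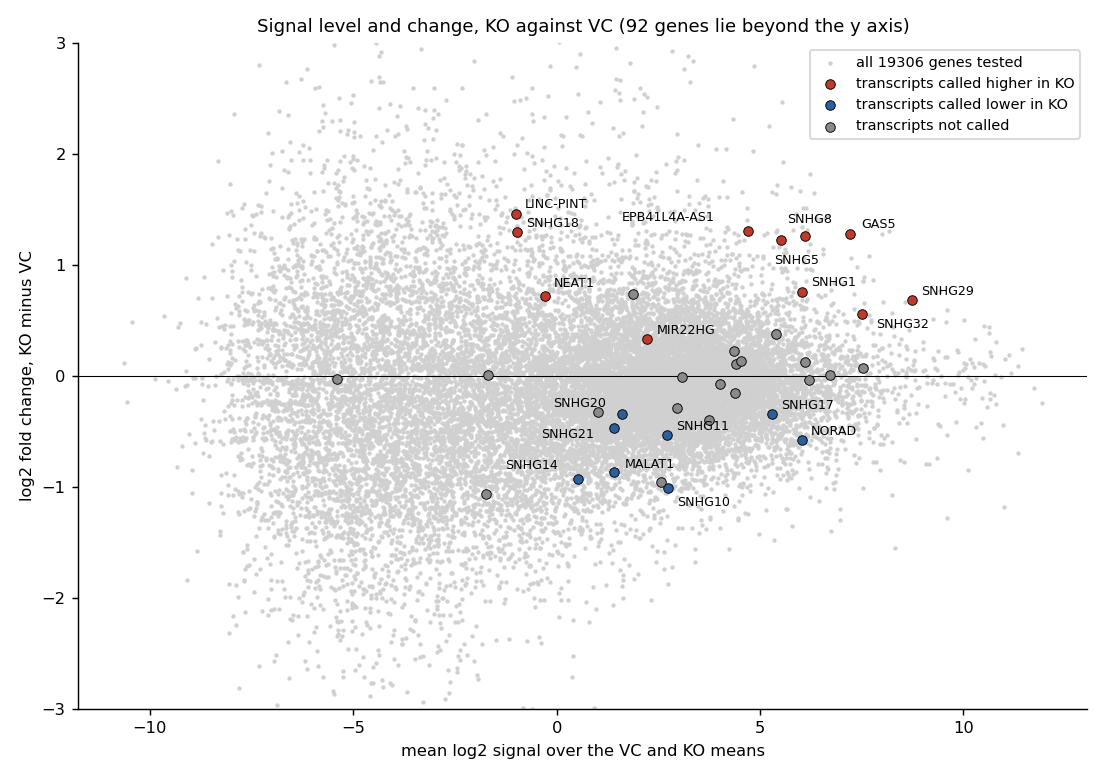
The x axis is the mean log2 signal and the y axis the log2 fold change of KO against VC; small grey points are the 19306 genes tested (92 lie beyond the y axis), and large points are the 38 transcripts by call. GAS5, EPB41L4A-AS1, SNHG5 and SNHG8 sit at log2 fold changes of 1.22 to 1.30 at high signal, while LINC-PINT and SNHG18 have low signal.

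The KO libraries were not alike in size of change. Among the 11 transcripts that rose, KO replicate 2 was the highest KO library in 10 and KO replicate 1 the lowest in 9. Their median distance above the VC mean was 0.84, 1.34 and 1.10 (log2) for KO replicates 1, 2 and 3. Among the 8 that fell, KO replicate 1 was closest to VC in 8, with median distances of -0.47, -0.62 and -0.61. The SD was larger in KO than in VC in 33 of the 38 transcripts, and in 68.1% of all genes.

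Of the 19 transcripts that were not called, 8 had groups without overlap. Over all genes with 6 values, called or not, 59.3% had no overlap, while 32.9% of all genes tested were called. SNHG31, the host of SNORA70I, had a log2 fold change of -1.07 (SE 0.42, adjusted p = 0.10) and SNHG30, the host of SNORD7, of -0.96 (SE 0.30, adjusted p = 0.061). The SNHG30 values were 3.09, 2.99 and 3.04 in VC and 2.60, 1.43 and 2.21 in KO, so the spread lay in KO. SNHG9 (-0.40, adjusted p = 0.080), SNHG26 (-0.33, 0.075), SNHG12 (-0.29, 0.12) and TUG1 (-0.16, 0.19) also had all KO libraries below VC. SNHG25 (0.74, SE 0.26, adjusted p = 0.077) and SNHG7 (0.38, SE 0.14, adjusted p = 0.093) had all KO libraries above VC. SNHG30 passed the threshold without KO replicate 1 or KO replicate 2, and SNHG9, SNHG7 and SNHG25 passed without KO replicate 1.

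The groups overlapped in the remaining 11. Some of these were among the most highly expressed hosts and differed little. ZFAS1, the host of the SNORD12 family, had log2 signals of 7.49, 7.53 and 7.46 in VC and 7.42, 7.69 and 7.56 in KO (log2 fold change 0.07, 95% interval -0.16 to 0.30). SNHG6 had 6.72, 6.78 and 6.64 in VC and 6.58, 6.80 and 6.79 in KO (0.01, interval -0.23 to 0.24). SNHG16 had 6.26, 6.26 and 6.16 in VC and 6.30, 6.18 and 6.08 in KO (-0.04, interval -0.25 to 0.17). These intervals do not reach the fold change of GAS5. DANCR (0.12), SNHG3 (0.10), SNHG15 (0.14), SNHG19 (0.22), SNHG4 (-0.02), SNHG28 (0.0025) and CYTOR (-0.07) had adjusted p between 0.26 and 0.99. H19 was tested on 2 values per group, -6.14 and -4.64 in VC and -5.63 and -5.21 in KO, and its 95% interval ran from -1.84 to 1.79.

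Grouped by the small RNA within their RefSeq bounds, 15 tested hosts held a box C/D snoRNA, 6 of which rose and 1 (SNHG14) fell, with a median log2 fold change of 0.22. Of 11 hosts of box H/ACA snoRNAs without a box C/D snoRNA, 2 rose (SNHG8, EPB41L4A-AS1) and 2 fell (SNHG11, SNHG17), with a median of 0.10. The median was -0.47 for the 3 scaRNA hosts and -0.03 for the 9 transcripts without a named snoRNA or scaRNA. Over all genes tested 13.1% were higher and 19.8% lower, with a median of -0.125. The class values are descriptions of small groups, and their difference was not tested.

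**Figure D3:**
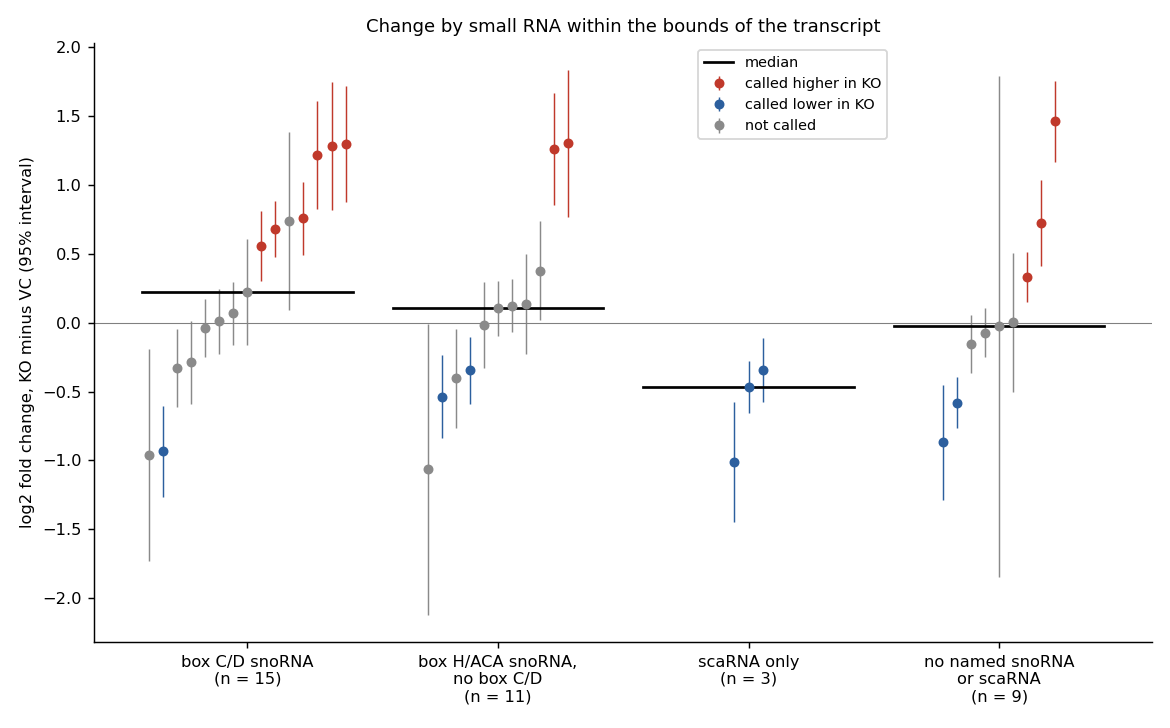
Log2 fold changes of KO against VC with 95% intervals for the 38 transcripts, grouped by the small RNA within the bounds of each; the black bar is the group median. The 3 scaRNA hosts lie between -1.01 and -0.34, while each of the other groups holds transcripts on both sides of 0.

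The snoRNAs themselves were poorly covered. Of 547 SNORD and SNORA rows in the table, 176 had any value and 79 were tested. Among the 79, 0 were called higher and 8 lower by limma (2 and 14 at an unadjusted p under 0.05). Over all genes 13.1% were higher and 19.8% lower (3445 and 5796 of 19306 at an unadjusted p under 0.05). The median log2 fold change of the 79 was -0.46, beside -0.125. Within the 41 transcripts lie 151 small RNAs in RefSeq, of which 20 were tested. Of these 0 were higher and 4 lower (0 and 6 at an unadjusted p under 0.05): SNORA16A in SNHG12 (-1.85, adjusted p = 0.038), SNORA71B in SNHG17 (-0.98, 0.015), SCARNA16 in SNHG20 (-1.73, 0.038) and SNORA73A in SNHG3 (-0.91, 0.020). Each of these calls lay in a host that fell or was not called. The number of calls among the 20 ran from 0 (limma, without KO replicate 3 or VC replicate 3, with 5 each at an unadjusted p under 0.05) to 5. Without KO replicate 3 and without VC replicate 3, 7280 of 18584 and 7104 of 18626 genes had such an unadjusted p.

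Only 6 tested small RNAs lay in a host that rose. SNORD47 in GAS5 had log2 signals of 1.64, 1.10 and 1.58 in VC and 1.31, 0.63 and 1.67 in KO (log2 fold change -0.24, SE 0.31, adjusted p = 0.58). SNORD76 in GAS5 was at -0.76 (SE 0.47), SNORD79 in GAS5 at -0.11 (SE 0.64), SNORA103 in GAS5 at -0.57 (SE 0.55), SNORD22 in SNHG1 at -0.53 (SE 0.55) and SNORA24 in SNHG8 at -0.71 (SE 1.05). None passed the test, and the groups overlapped for SNORD47. Whether reads over a snoRNA came from unspliced host RNA was not tested.

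Proteins of the snoRNP particles were compared next. Of 17 tested snoRNP proteins, 0 were higher and 3 lower by limma, beside 13.1% and 19.8% of all genes. At an unadjusted p under 0.05 the counts were 4 and 8, beside 3445 and 5796 of 19306 genes. The median log2 fold change of the 17 was -0.19, beside -0.125. NOLC1, a chaperone of snoRNPs, had 7.02 ± 0.04 (SD, n = 3) in VC and 6.42 ± 0.28 in KO (-0.60, SE 0.15, adjusted p = 0.036). GAR1 of the H/ACA particle (-0.45, adjusted p = 0.029) and NOP58 of the C/D particle (-0.37, adjusted p = 0.046) also fell. The catalytic subunits FBL (-0.10, adjusted p = 0.28) and DKC1 (-0.28, adjusted p = 0.064) were not called. The count was 0 (limma) without KO replicate 3 or any single VC replicate, with 3 to 5 at an unadjusted p under 0.05. In those fits 7089 to 7697 of 18584 to 18748 genes had such an unadjusted p. The count was 8 without KO replicate 1, and 12 when only the upper 50% of signals was tested.

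Protein-coding genes that host snoRNAs moved both ways. Of 33 tested, 7 were higher and 6 lower, beside 13.1% and 19.8% of all genes, with a median log2 fold change of 0.0060. TAF1D, a subunit of the RNA polymerase I factor SL1, rose (0.54, SE 0.13, adjusted p = 0.035), as did the elongation factor EEF2 (0.50, SE 0.10, adjusted p = 0.024) and the ribosomal protein genes RPL3, RPL10, RPL13 and RPL13A (0.33 to 0.44). The heat shock protein gene HSPA8 fell (-1.18, SE 0.23, adjusted p = 0.020), as did NCL, encoding nucleolin (-0.74, SE 0.15, adjusted p = 0.021). The count was 0 (limma) without KO replicate 3 or any single VC replicate, with 12 to 15 at an unadjusted p under 0.05. In those fits 7089 to 7697 of 18584 to 18748 genes had such an unadjusted p.

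Of 20 tested factors of nonsense-mediated decay, the pathway that degrades several of the hosts, 2 were higher and 8 lower. Of all genes 13.1% were higher and 19.8% lower. The median log2 fold change of the factors was -0.29, beside -0.125. Whether this bears on the hosts was not tested. UPF1, the central helicase, had 4.92 ± 0.06 in VC and 4.29 ± 0.28 in KO (-0.64, SE 0.16, adjusted p = 0.034). UPF3B (-0.49, adjusted p = 0.031), UPF2, UPF3A, SMG1, SMG5, PNRC2 and GSPT1 (-0.48 to -0.42) also fell. The endonuclease SMG6 (0.59, SE 0.09, adjusted p = 0.013) and CASC3 of the exon junction complex (0.34, SE 0.08, adjusted p = 0.029) rose. The count was 0 (limma) without VC replicate 1 or 3 (10 each at an unadjusted p under 0.05). In those fits 7089 of 18610 and 7104 of 18626 genes had such an unadjusted p. The count was 1 without KO replicate 3, 2 without VC replicate 2, 6 without KO replicate 2 and 16 without KO replicate 1.

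Of 12 tested proteins of paraspeckles and nuclear speckles, the bodies of NEAT1 and MALAT1, 1 was higher and 6 lower. Among all genes these shares were 13.1% and 19.8%. The median log2 fold change of the list was -0.44, beside -0.125. The paraspeckle protein PSPC1 rose (0.51, SE 0.11, adjusted p = 0.026). The splicing factor SRSF1 (-1.01, SE 0.23, adjusted p = 0.029), TARDBP (-0.70, adjusted p = 0.030), SFPQ, HNRNPK, SON and SRRM2 (-0.60 to -0.43) fell, and NONO was not called (-0.09, adjusted p = 0.38). The count was 0 (limma) without KO replicate 3 or any single VC replicate, with 7 or 8 at an unadjusted p under 0.05. In those fits 7089 to 7697 of 18584 to 18748 genes had such an unadjusted p.

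**Figure D4:**
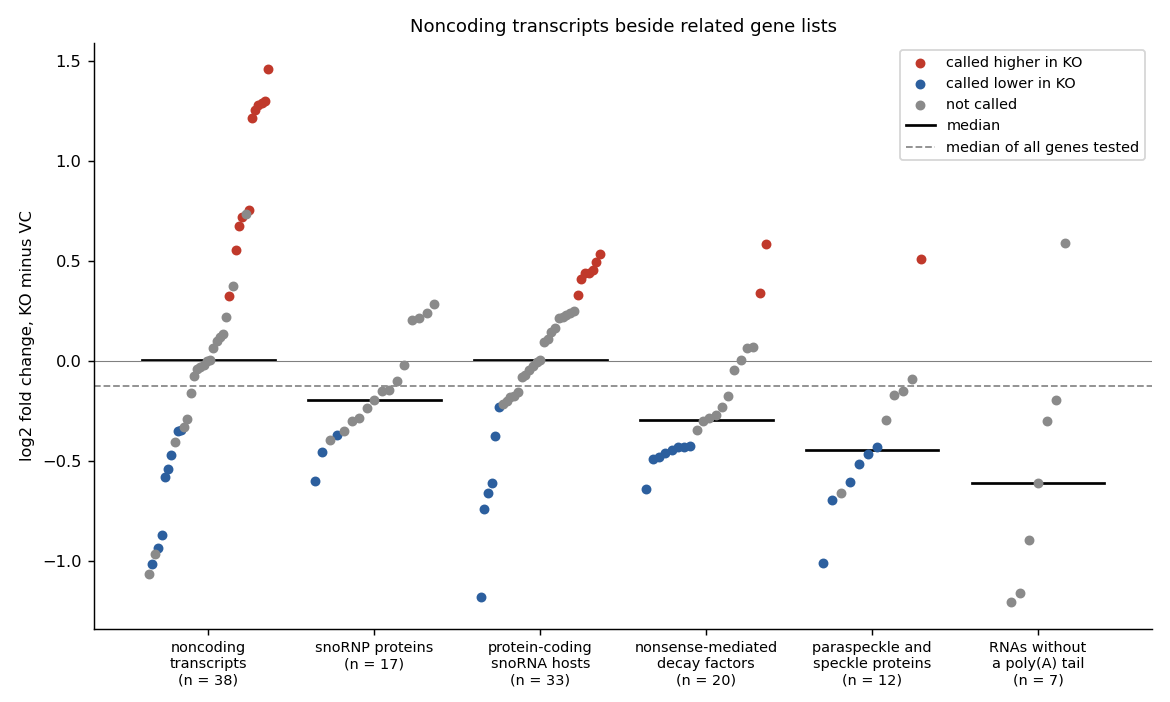
Log2 fold changes of KO against VC for the 38 noncoding transcripts and for 5 lists of related genes; each point is a gene coloured by call, black bars are list medians and the dashed line is the median of all genes tested (-0.125). The medians of the nonsense-mediated decay and speckle lists (-0.29 and -0.44) lie below the dashed line, and those of the noncoding transcripts and the protein-coding hosts at about 0.

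Direct partners of single transcripts were listed too, and of 7 tested 0 were higher (limma, 0 at an unadjusted p under 0.05) and 4 lower. These counts stand beside 13.1% higher and 19.8% lower over all genes (3445 and 5796 of 19306 at an unadjusted p under 0.05). IGF2, the imprinted neighbour of H19, fell (-0.52, SE 0.10, adjusted p = 0.020). ZNFX1, beside ZFAS1, fell (-1.01, SE 0.17, adjusted p = 0.016). MIR4435-2HG, a near copy of CYTOR, fell (-0.59, adjusted p = 0.040), and reads of such paralogs may be split between them. The count was 0 without VC replicate 1 or 3 (4 at an unadjusted p under 0.05) and 1 without KO replicate 3 or VC replicate 2.

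Genes beside the transcripts were compared to see whether a locus moved as a whole. Of the flanking genes, 5 were higher and 5 lower of 19 tested beside transcripts that rose (median log2 fold change 0.07). The counts were 1 and 5 of 13 beside transcripts that fell (-0.46), and 4 and 12 of 30 beside those not called (-0.28). Over all genes 13.1% were higher and 19.8% lower. In 10 pairs of a transcript and a gene whose RefSeq starts lie within 1000 bases and face away from each other, 3 pairs were called in the same direction and 0 in opposite directions. In 4 pairs only 1 gene was called and in 3 neither was. The pairs were drawn up after the values had been seen.

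The pairs called together were SNHG1 with SLC3A2, SNHG18 with SEMA5A, and SNHG10 with GLRX5. SLC3A2, the heavy chain of amino acid transporters, had 5.37 in VC and 6.88 in KO (log2 fold change 1.51, SE 0.16, adjusted p = 0.0086), a larger rise than that of SNHG1. SEMA5A, a semaphorin, rose by 1.16 (SE 0.08, adjusted p = 0.0057). GLRX5, a mitochondrial glutaredoxin, fell by 0.57 (SE 0.10, adjusted p = 0.017). By contrast LINC-PINT rose while MKLN1 was at -0.01 (SE 0.07, adjusted p = 0.94), and KLF14 on its other side rose (1.16, adjusted p = 0.0085).

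Beside GAS5, SNHG8 and SNHG5, protein-coding genes fell. Next to GAS5, ZBTB37 fell (-0.35, adjusted p = 0.036), while the antisense gene GAS5-AS1 rose (2.23, adjusted p = 0.024). Since the strand setting is not given, GAS5-AS1 reads may be reads of GAS5. Beside SNHG8, PRSS12 fell (-0.60, adjusted p = 0.016), and beside SNHG5, SYNCRIP fell (-0.57, adjusted p = 0.031). ZFAS1 was not called, while its neighbour ZNFX1 fell.

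Last, the median of all tested genes of the same chromosome was set beside the transcripts, for the 91.5% of genes that could be placed. The medians were -0.39 for chromosome 14 (SNHG10) and -0.25 for chromosome 20, which carries NORAD, SNHG17, SNHG11 and ZFAS1. SNHG10 (-1.01), NORAD (-0.58), SNHG11 (-0.54) and SNHG17 (-0.35) lay below the median of their chromosome, and ZFAS1 (0.07) lay above it. SNHG6 (0.01) also lay above the median of chromosome 8 (-0.32). The median was 0.29 for chromosome 22, where TUG1 was at -0.16. For the chromosomes of the 11 risers the medians ran from -0.19 (chromosome 7, LINC-PINT) to -0.08. The part of chromosome shifts in the calls was not tested. In bulk RNA of a cell line, fewer cells of a type and less RNA per cell cannot be told apart.

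MEG3, SNHG22 and SNHG27 could not be tested. SNHG27 had values in VC replicates 1 and 3 only (-5.66 and -4.75), and SNHG22, a scaRNA host, had 1 value in each group (-6.44 in VC replicate 1 and -6.52 in KO replicate 3).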

How the data were processed

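Per the labels, RNA from 143B cells was made into libraries with a stranded mRNA kit, and the submitters' processing notes name STAR, CASAVA, Partek and GRCh38.p13. Versions, annotation and strand setting are not given in the sources used here. The authors deposited log2 signals, quantile-normalized, without stating the linear unit or the depth, so no counting error could be given. An empty cell was treated as missing.

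The test (limma 3.58.1 in R 4.3.3, two-sided, empirical Bayes without a trend) took the 19306 genes that had 2 or more values per group, with Benjamini-Hochberg adjustment over all of them. An exact permutation test of 3 against 3 cannot go below 0.1 and was not used. On simulated data for the KO and VC comparison with 19306 genes, 126 of 200 changed genes were recovered. The simulation gave both groups the same spread and changed a smaller share of genes than was called here. The share recovered is therefore not the power of the test in these data. In the simulated data without any changed gene, 0 genes were called. Calls among the genes left unchanged beside the 200 were not counted.

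The transcripts, the 10 gene lists and the tests were chosen with earlier results of these data known. All transcripts are reported. From each list up to 2 DEGs per direction with the largest fold change were named, with FBL, DKC1, UPF1 and NONO. NOP58, IGF2 and the DEGs given in ranges are named beyond this, after their values were seen. RefSeq (GRCh38.p14) gave start windows, neighbours, small RNAs within bounds and chromosomes by symbol, for 17663 of 19306 genes. The alternatives were 3 other gene filters, median-centring, requantiling, 1 added to the linear signal, trend or no moderation, arrayWeights, a replicate block, a 2-fold limit, unadjusted p and each library left out. Not every gene of the lists and neighbours is reported here.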

Additional observations from a re-analysis of the deposited data

How the results depend on the processing

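No DEG among the transcripts changed direction under the 18 alternatives, but only median-centring and requantiling could have changed one. In the other alternatives the direction of a DEG was fixed in advance, since its groups did not overlap. Of the DEGs, 7 (LINC-PINT, NORAD, SNHG29, SNHG18, SNHG5, SNHG8 and SNHG14) kept their call in each of the 6 fits that left out a library. The median of all genes was -0.125, and it was -0.038 with median-centred libraries, -0.036 after requantiling and -0.023 with 1 added to the linear signal. The median of the transcripts was 0.0056, and it was 0.093 with median-centred libraries, 0.094 after requantiling and -0.0063 to 0.081 with single libraries left out.

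With single libraries left out the number of DEGs was 1223 to 8669 over all genes, 7 to 23 among the transcripts (5 to 13 higher, 2 to 10 lower), 0 to 8 for snoRNP proteins, 0 to 16 for decay factors, 0 to 20 for protein-coding hosts and 0 to 9 for speckle proteins. These fits have fewer samples, and the lone group of 2 shares the spread of the other. Weighting by arrayWeights gave 13936 DEGs over all genes, 33 transcripts (17 higher, 16 lower) and 15, 17, 26 and 12 in the 4 lists in the same order, but it gave KO replicate 3 a weight of 86.5 and ended with a warning. With a replicate block there were 1740 DEGs over all genes, 9 transcripts (7 higher, 2 lower) and 0 in each of the 4 lists. At an unadjusted p under 0.05 the lists had 5, 11, 12 and 9, beside 8194 of 19005 genes. Whether same-numbered libraries belong together could not be settled. Their deviations correlated at 0.023, 0.0051 and -0.0074 across genes, and those of unlike numbers at -0.030 to 0.031. Such values do not show that same-numbered libraries were prepared apart. A 2-fold limit left 1840, 7 (6 higher, 1 lower) and 0, 0, 1 and 1. Without variance moderation 5 transcripts were lower (SNHG11, SNHG17 and SNHG20 lost their call), and 5 decay factors and 2 speckle proteins were called. The snoRNP count of 3 became 12 in the upper 50% of signals, 6 with median-centring, 6 after requantiling, 12 with 1 added, 11 with a trend and 12 unadjusted. The protein-coding host count of 13 became 20 in the upper 50% of signals, 22 with 1 added and 22 with a trend. The cause was not tested.

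Sign changes were seen only in transcripts that were not called and whose groups overlapped, while no DEG had overlapping groups. These were SNHG28 (-0.0051 with 1 added, -0.12 weighted, -0.18 to 0.19 without a library), CYTOR (0.016 median-centred), SNHG4 (0.072 median-centred, 0.029 requantiled, 0.23 weighted, -0.13 to 0.073 without a library), SNHG15 (-0.14 weighted), SNHG6 (-0.032 to 0.081 without a library), H19 (0.062 median-centred, 0.053 weighted) and SNHG16 (0.048 median-centred, -0.094 to 0.012 without a library).

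The depth and the linear unit are unknown, so counting error could not be given for any transcript. The most calls were lost without VC replicate 3, with 12 of the 19 DEGs among the transcripts. The count over all genes was also lowest there (1223, beside 1403 without VC replicate 1). Some losses lay close to the threshold. GAS5 had an adjusted p of 0.0496 (limma) without VC replicate 1 and 0.0509 without VC replicate 3.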
